A study of Homo sapiens with 8 samples.

Results

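The AP-1 family was taken as the 9 genes FOS, FOSB, FOSL1, FOSL2, JUN, JUNB, JUND, ATF3 and BATF3, each found by its symbol in the deposited count table, which made 9 of 55679 genes. The family was selected with its CPM and its Acetalax and CE ratios in these same libraries known, so all its values are given as a description, without a test, and tests were kept for lists of other genes. Those lists too were chosen with earlier results of these data known. RNA-seq had been done in 8 libraries of poly(A) RNA, 1 for each condition of the triple-negative breast cancer lines MDAMB468 and BT549. Parental and CE cells of each line were compared without drug (control) and after Acetalax (oxyphenisatin acetate) at 1 μmol/L for 6 hours. CE stands for chronic exposure: parental cells had been passaged in rising Acetalax until they grew at 40 μmol/L, were described as resistant, and were kept without the drug for 2 weeks before use. All 8 groups were established cell lines in culture with no other genetic change named. How many CE clones were kept is not given in the sources used here, and a CE difference cannot be told apart from a difference between selected cells and their parents. With 1 library per condition there was no replicate check of any single ratio. The 95% intervals given below treat reads as independent counts and cover no spread between cultures. Reads without molecular identifiers are not independent molecules, so the intervals can be too narrow even for counting error.

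AP-1 is a dimer of basic leucine zipper (bZIP) proteins. FOS family proteins do not pair with each other and need a JUN partner, whereas JUN proteins can pair among themselves, and ATF3 and BATF3 are relatives that pair with JUN proteins and are often repressive. FOS, FOSB, JUN, JUNB and ATF3 are textbook immediate early genes, whose short-lived messages appear within minutes of growth factor, calcium or stress signalling, while FOSL1 (FRA-1) and FOSL2 (FRA-2) come later, and FOSL1 is known as the FOS family protein of mesenchymal and invasive breast cancer cells.

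The libraries held 42261122 to 54241728 counts on genes. Levels are in CPM, counts scaled to a common library size after TMM scaling (the trimmed mean of M values, which centres the bulk of genes between libraries). The TMM factor was 0.83 in the BT549 CE Acetalax library and 0.964 to 1.12 in the other 7, so this library stood apart. Its members' ratios depended on the scaling: the median log2 ratio of all genes in BT549 CE cells was 0.01 with TMM and -0.21 with plain library totals, and for CE over parental BT549 cells under Acetalax it was 0.08 and -0.15. The lines carried their defining markers, with CDH1 and EPCAM at 111 to 140 and 365 to 431 CPM in MDAMB468 and below 1 in BT549, and with VIM at 896 to 1453 CPM in BT549 against 1.58 to 8.78 in MDAMB468. ESR1 was at most 4.9 CPM and PGR at most 0.65 CPM, while ERBB2 was at 42.3 to 92.3 CPM.

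The promoters are shown first because the family is known to act on its own genes. RefSeq sequences (GRCh38.p14) from 250 bases before to 50 after the start were at hand for 7 of the 9 members, 8 promoters in all with a pair for ATF3, and none was matched for FOSL1 and BATF3. A set of 3 motifs was searched on both strands. TGANTCA takes in the classic AP-1 site TGACTCA but allows any base at N, so it is wider than that site. TGACNTCA is the longer site bound by CREB, ATF and JUN dimers. TGACGT is the core of a cAMP response element and overlaps TGACNTCA wherever the latter has G at its free position. In the 250 bases before the start, TGACNTCA was in 3 of the 8 promoters (JUN, the first promoter of ATF3, and JUND) and in 6.87% of 35116 promoters, TGACGT in 4 of the 8 (FOS, FOSB, FOSL2 and JUND) and in 7.1%, and TGANTCA in 0 of the 8 and in 6.57%. JUN (minus strand, chr1:58784048-58784297) and the first ATF3 promoter (plus strand, chr1:212565157-212565406) held the same 8 letters, starting 67 and 123 bases before their starts. JUND (minus strand, chr19:18281623-18281872) held the palindromic form 200 bases before its start and a second core at 87, and FOS (plus strand, chr14:75278578-75278827) held the core at 64. The only TGANTCA lay after a start, from base 5 of FOSL2 (plus strand, chr2:28392858-28392887), where a window of all 300 bases holds it in 7.71% of promoters. These sequences are shown for the motifs, in capitals, and a match is only a match of letters.
JUN: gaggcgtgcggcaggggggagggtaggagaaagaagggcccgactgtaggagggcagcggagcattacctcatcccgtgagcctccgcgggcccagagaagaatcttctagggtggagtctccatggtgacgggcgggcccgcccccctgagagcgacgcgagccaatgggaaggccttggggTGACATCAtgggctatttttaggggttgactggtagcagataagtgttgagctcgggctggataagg
ATF3: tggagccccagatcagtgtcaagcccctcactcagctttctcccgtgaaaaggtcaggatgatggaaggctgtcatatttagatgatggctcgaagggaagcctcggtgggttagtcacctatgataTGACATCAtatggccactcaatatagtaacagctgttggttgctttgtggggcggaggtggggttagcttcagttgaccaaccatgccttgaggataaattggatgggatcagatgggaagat
JUND: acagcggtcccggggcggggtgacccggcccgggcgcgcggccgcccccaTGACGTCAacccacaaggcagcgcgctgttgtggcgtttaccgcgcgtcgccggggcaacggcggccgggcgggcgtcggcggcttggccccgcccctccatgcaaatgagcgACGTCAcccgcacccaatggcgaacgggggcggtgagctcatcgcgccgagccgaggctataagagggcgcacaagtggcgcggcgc
FOS: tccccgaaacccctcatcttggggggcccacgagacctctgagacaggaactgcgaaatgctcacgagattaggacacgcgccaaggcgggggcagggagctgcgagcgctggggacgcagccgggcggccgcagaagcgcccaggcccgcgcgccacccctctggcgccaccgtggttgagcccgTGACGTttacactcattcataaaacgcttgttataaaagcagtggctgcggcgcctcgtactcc
FOSL2: gtagTGACTCAtctcgggcagagcgctagg

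Among the FOS family, the libraries differed most in which gene carried the message. Per kilobase of merged exons, FOS led in MDAMB468 control cells, and FOSL1 led wherever Acetalax had been given and in parental BT549 control cells. The CPM that follow are not per length and compare libraries, not genes. FOS (ENSG00000170345, hg19 14:75745477-75748933, plus strand) encodes the founding partner of JUN. In MDAMB468 it was at 190.4 CPM in parental control and 39.1 CPM in parental Acetalax cells, and at 159.3 and 68.3 CPM in CE control and CE Acetalax cells. In BT549 it was at 31.6 and 44.8 CPM in parental cells without and with Acetalax, and at 120.8 and 107.9 CPM in CE cells. FOS was thus lower after Acetalax in both MDAMB468 backgrounds and higher in CE than parental BT549 cells with or without the drug. The log2 ratio of Acetalax over control was -2.28 (interval -2.36 to -2.21, 4.87-fold lower) in MDAMB468 parental cells and -1.22 (-1.28 to -1.17, 2.33-fold lower) in MDAMB468 CE cells. It was 0.50 (0.40 to 0.61) in BT549 parental and -0.16 (-0.22 to -0.11) in BT549 CE cells. Of the 14005 genes that averaged 1 CPM or more, 38 had a lower ratio than FOS in MDAMB468 parental cells. In these bulk libraries, fewer cells with a message and less of it per cell cannot be told apart.

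FOSL1 (ENSG00000175592, hg19 11:65659520-65668044, minus strand), which encodes FRA-1, had the widest range of the family. It had 323 counts, or 6.18 CPM, in MDAMB468 parental control cells and 17492 counts, or 353.7 CPM, after Acetalax. In MDAMB468 CE cells it went from 17.2 to 162.6 CPM. BT549 held 281.1 and 380.2 CPM in parental cells and at 71.1 and 548.0 CPM in CE cells, without and with Acetalax. The 4 Acetalax libraries held 162.6 CPM or more, and among the controls parental BT549 alone was above 100 CPM. The log2 ratio was 5.84 (5.68 to 6.00, 57.1-fold) in MDAMB468 parental, 3.24 (3.14 to 3.34, 9.43-fold) in MDAMB468 CE, 0.44 (0.40 to 0.47, 1.35-fold) in BT549 parental and 2.95 (2.90 to 3.00, 7.71-fold) in BT549 CE cells. In MDAMB468 parental cells 3 of the 14005 genes had a higher ratio. The fold was small in the background where FOSL1 was already high without the drug.

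FOSB (ENSG00000125740, hg19 19:45971253-45978437, plus strand), a close FOS relative, split by line. In BT549 it was at 13.0 CPM in parental control and 36.0 CPM in parental Acetalax cells, and at 23.8 and 68.5 CPM in the CE pair. In MDAMB468 it was at 32.5 and 26.2 CPM in the parental pair and at 45.0 and 41.5 CPM in the CE pair. Its log2 ratio was 1.47 (1.33 to 1.61) and 1.53 (1.43 to 1.62) in BT549 parental and CE cells, and -0.31 (-0.42 to -0.21) and -0.12 (-0.20 to -0.03) in MDAMB468 parental and CE cells. FOSB is crossed by ERCC1 on the opposite strand, so its counts depend on a strand setting that the sources used here do not give.

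FOSL2 (ENSG00000075426, hg19 2:28615315-28640179, plus strand), which encodes FRA-2, was well expressed in every library. It was at 102.8 and 235.2 CPM in MDAMB468 parental cells without and with Acetalax, and at 149.5 and 158.3 CPM in MDAMB468 CE cells. BT549 held 209.5 and 273.1 CPM in parental cells and at 252.8 and 632.1 CPM in CE cells. Its log2 ratio was 1.19 (1.15 to 1.24) in MDAMB468 parental and 1.32 (1.29 to 1.35) in BT549 CE cells, 0.38 (0.34 to 0.42) in BT549 parental cells, and 0.08 (0.04 to 0.13) in MDAMB468 CE cells, where library totals gave -0.01.

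**Figure D1:**
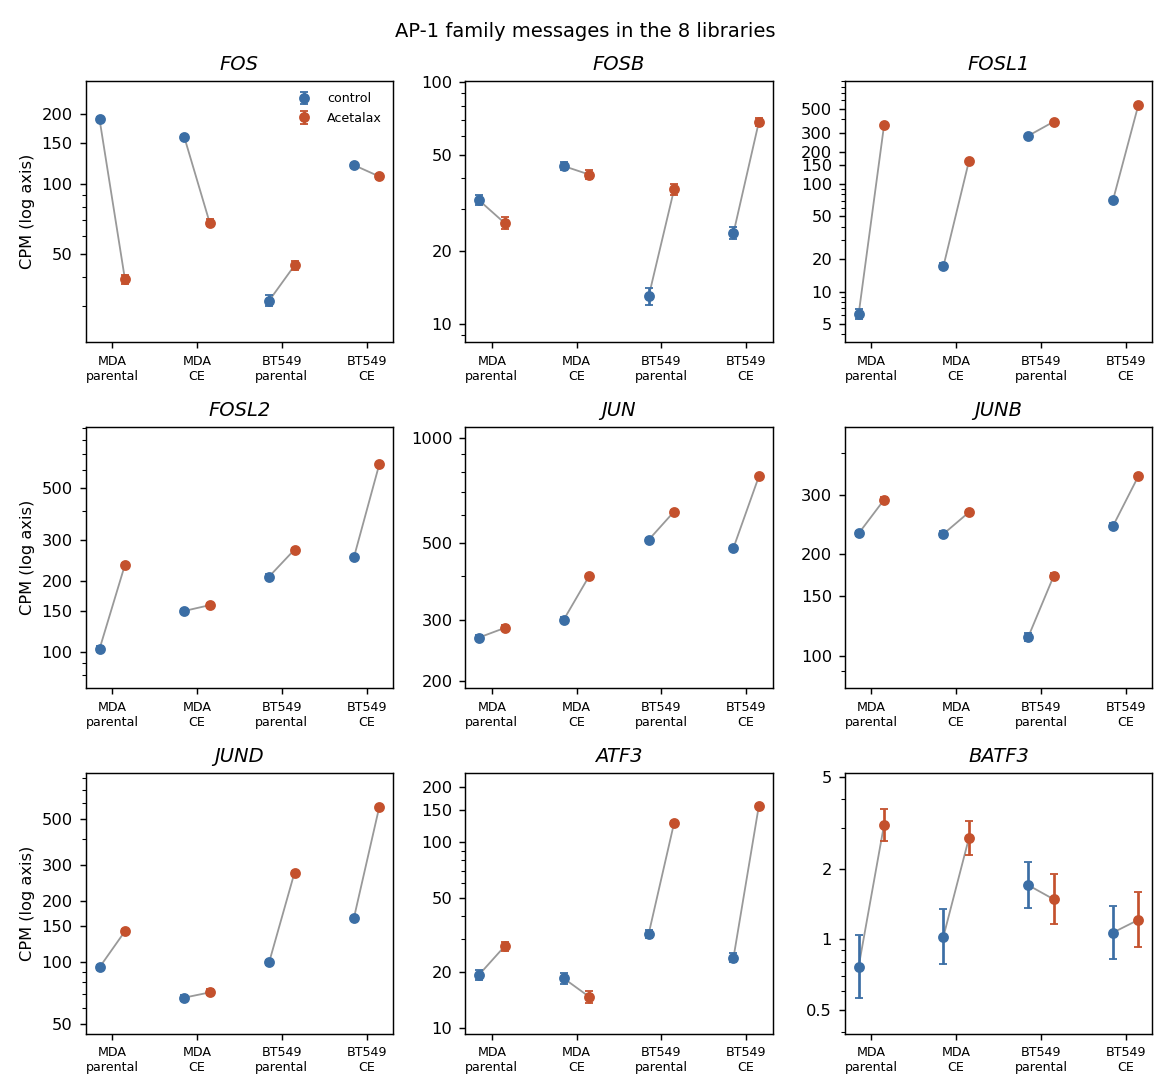
Level of each AP-1 gene in the 8 libraries, in CPM on a log axis that differs between panels (points, 1 library each; bars, 95% Wilson counting intervals; grey lines join the control and Acetalax library of a background; MDA stands for MDAMB468). FOSL1 ends at 162.6 CPM or more in all 4 Acetalax libraries from controls between 6.18 and 281.1 CPM, and FOS goes from 190.4 to 39.1 CPM in MDAMB468 parental cells.

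JUN and JUNB spanned a narrower range of levels than the FOS family genes, and JUND did not. JUN (ENSG00000177606, hg19 1:59246465-59249785, minus strand), the main DNA-binding partner of the FOS proteins, was at 266.8 and 284.1 CPM in MDAMB468 parental cells without and with Acetalax and at 300.5 and 401.4 CPM in MDAMB468 CE cells. BT549 held 509.0 and 613.9 CPM in parental cells and at 482.6 and 774.9 CPM in CE cells. Every BT549 library lay above every MDAMB468 library. The log2 ratio of Acetalax over control was 0.09 (0.06 to 0.13), 0.42 (0.39 to 0.45), 0.27 (0.24 to 0.30) and 0.68 (0.66 to 0.71) in MDAMB468 parental, MDAMB468 CE, BT549 parental and BT549 CE cells.

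JUNB (ENSG00000171223, hg19 19:12902310-12904124, plus strand), which often restrains JUN, was at 230.7 and 290.4 CPM in MDAMB468 parental and at 229.9 and 266.5 CPM in MDAMB468 CE cells, without and with Acetalax. It was at 113.7 and 172.4 CPM in BT549 parental cells, the lowest pair, and at 242.8 and 341.6 CPM in BT549 CE cells. The log2 ratios ran from 0.21 (0.18 to 0.25) in MDAMB468 CE to 0.60 (0.55 to 0.65) in BT549 parental cells. HOOK2 spans JUNB on the other strand and had 340 to 4723 counts against 4782 to 14361 for JUNB.

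JUND (ENSG00000130522, hg19 19:18390563-18392432, minus strand), the JUN gene that is usually expressed most steadily, differed most among the JUN genes here. In BT549 it was at 99.96 and 274.8 CPM in parental cells and at 164.6 and 576.2 CPM in CE cells, without and with Acetalax. In MDAMB468 it was at 94.6 and 142.0 CPM in parental cells and at 67.3 and 71.4 CPM in CE cells. The log2 ratio was 1.46 (1.41 to 1.51) and 1.81 (1.77 to 1.84) in BT549 parental and CE cells, 0.59 (0.53 to 0.64) in MDAMB468 parental cells, and 0.09 (0.02 to 0.15) in MDAMB468 CE cells, where library totals gave -0.01.

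ATF3 (ENSG00000162772, hg19 1:212738676-212794119, plus strand), a stress-induced bZIP gene, went from 32.0 to 127.2 CPM in BT549 parental and from 23.8 to 157.7 CPM in BT549 CE cells with Acetalax. In MDAMB468 it was at 19.3 and 27.4 CPM in parental cells and at 18.4 and 14.7 CPM in CE cells. Both BT549 Acetalax libraries were thus far above the other 6. The log2 ratio was 1.99 (1.90 to 2.08, 3.97-fold) and 2.73 (2.64 to 2.82, 6.63-fold) in BT549 parental and CE cells, 0.51 (0.39 to 0.63) in MDAMB468 parental cells and -0.33 (-0.47 to -0.19) in MDAMB468 CE cells. BATF3 (ENSG00000123685, hg19 1:212859760-212873327, minus strand), best known from dendritic cells, was near the floor of the family at 0.766 to 3.11 CPM. It had 40 and 154 counts in MDAMB468 parental and 51 and 136 counts in MDAMB468 CE cells, without and with Acetalax, for log2 ratios of 2.01 (1.51 to 2.56) and 1.39 (0.93 to 1.89). In BT549 it had 72 and 63 counts in parental and 56 and 51 in CE cells, and both intervals held 0. So ATF3 and BATF3 each had a ratio above 1 in a single line, ATF3 in BT549 and BATF3 in MDAMB468.

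**Figure D2:**
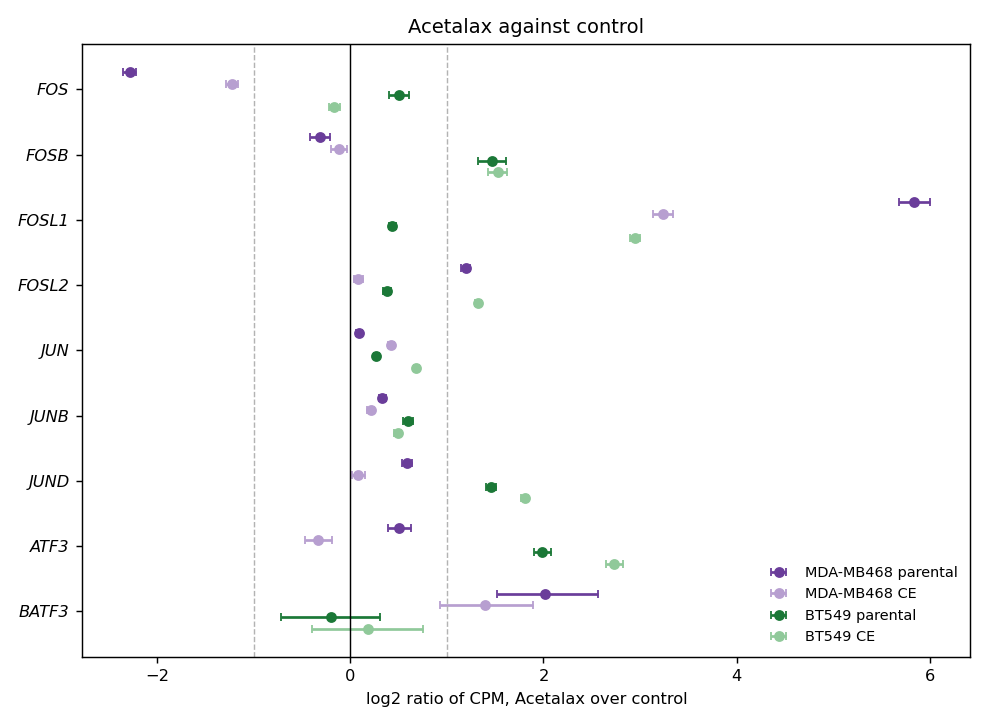
Log2 ratio of CPM, Acetalax over control, for each AP-1 gene in the 4 backgrounds (points; bars, exact 95% counting intervals; dashed lines at -1 and 1). FOSL1 is the farthest right in 3 backgrounds, at 5.84, 3.24 and 2.95, and FOSB, JUND and ATF3 lie above 1 in both BT549 backgrounds alone.

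As a family, 3 members (FOSL1, FOSL2 and BATF3) had a log2 ratio of at least 1 after Acetalax in MDAMB468 parental cells, where 5.95% of the 14005 genes did, and 1 (FOS) had a ratio of at most -1, as did 4.07% of genes. In MDAMB468 CE cells 2 members (FOSL1 and BATF3) were at or above 1 and 1 (FOS) at or below -1, beside 3.54% and 2.66% of genes. In BT549 parental cells 3 members (FOSB, JUND and ATF3) were at or above 1 and 0 at or below -1, beside 3.07% and 3.7% of genes. In BT549 CE cells 5 members (FOSB, FOSL1, FOSL2, JUND and ATF3) were at or above 1 and 0 at or below -1, beside 7.02% and 10.1% of genes. The median of the 9 ratios was 0.51, 0.09, 0.50 and 1.32 in MDAMB468 parental, MDAMB468 CE, BT549 parental and BT549 CE cells, and that of all genes was -0.02, 0.03, -0.07 and 0.01. The median in MDAMB468 CE cells became -0.01 with library totals. The members were picked on these ratios, so the shares describe them and support nothing further.

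Parental and CE cells of a line responded by different amounts. The log2 ratio of FOSL1 in CE minus that in parental cells was -2.60 (-2.79 to -2.41) in MDAMB468 and 2.51 (2.45 to 2.57) in BT549, so it was smaller in resistant cells of one line and larger in those of the other. FOSL2 did likewise, at -1.11 (-1.18 to -1.05) and 0.94 (0.89 to 0.99), as did ATF3, at -0.84 (-1.02 to -0.66) and 0.74 (0.62 to 0.86), and JUND, at -0.50 (-0.59 to -0.42) and 0.35 (0.29 to 0.41). FOS went the opposite way, at 1.06 (0.97 to 1.15) in MDAMB468 and -0.67 (-0.78 to -0.55) in BT549. JUN was larger in CE cells of both lines, by 0.33 (0.28 to 0.37) and 0.41 (0.38 to 0.45). JUNB was smaller in CE cells of both lines, by -0.12 (-0.17 to -0.07) and -0.11 (-0.17 to -0.05). FOSB differed by 0.19 (0.06 to 0.33) in MDAMB468 and by 0.06 (-0.11 to 0.23), within counting error, in BT549, and both intervals of BATF3 held 0. Each of these differences shares no library between its terms but rests on 4 single libraries. All of them used TMM scaling. Those of BT549 include the BT549 CE Acetalax library, whose ratios depended on the scaling, and the intervals do not cover this.

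The make-up of the FOS and JUN messages was followed per length, as FPKM (CPM per kilobase of merged exons). The 7 FOS and JUN genes summed to 331.9 and 548.0 FPKM in MDAMB468 parental cells without and with Acetalax, and to 331.5 and 430.6 FPKM in MDAMB468 CE cells. In BT549 they summed to 444.9 and 666.2 FPKM in parental cells and to 466.3 and 1124 FPKM in CE cells. The sum was higher with Acetalax in all 4 backgrounds. The FOS family made 25.1% and 43.3% of it in MDAMB468 parental cells, 26.6% and 31.9% in MDAMB468 CE cells, 42.8% and 39.1% in BT549 parental cells and 24.7% and 37.8% in BT549 CE cells, without and with the drug. With the length column of the deposited table, which is the genomic span with introns, the share in MDAMB468 parental cells was 19.99% and 17.01%, so the direction of this share depends on the length used.

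Within the FOS family, the share of FOSL1 was higher and that of FOS lower with Acetalax in 3 of the 4 backgrounds, with each of the 3 lengths tried. FOSL1 made 3.94% of the FOS family FPKM in MDAMB468 parental control cells and 79% after Acetalax, while FOS made 71.8% and 5.17%. In MDAMB468 CE cells FOSL1 made 10.4% and 62.8% and FOS 56.8% and 15.6%. In BT549 parental cells FOSL1 already made 78.2% without and 77.4% with Acetalax. In BT549 CE cells FOSL1 made 32.7% and 68.3% and FOS 32.9% and 7.97%. All 4 Acetalax libraries thus had FOSL1 as the largest FOS family message, at 62.8% to 79%, and parental BT549 was alone among the controls in this. With genomic spans FOSL1 went from 1.12% to 63.0% in MDAMB468 parental cells, and in MDAMB468 CE cells FOS stayed ahead after Acetalax, at 38.8% against 37.4%. Within the JUN family, JUND made 20.4% and 35.1% in BT549 parental and 24.3% and 42.7% in BT549 CE cells, and 19.7% and 23.7% in MDAMB468 parental and 14.3% and 12.6% in MDAMB468 CE cells.

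**Figure D3:**
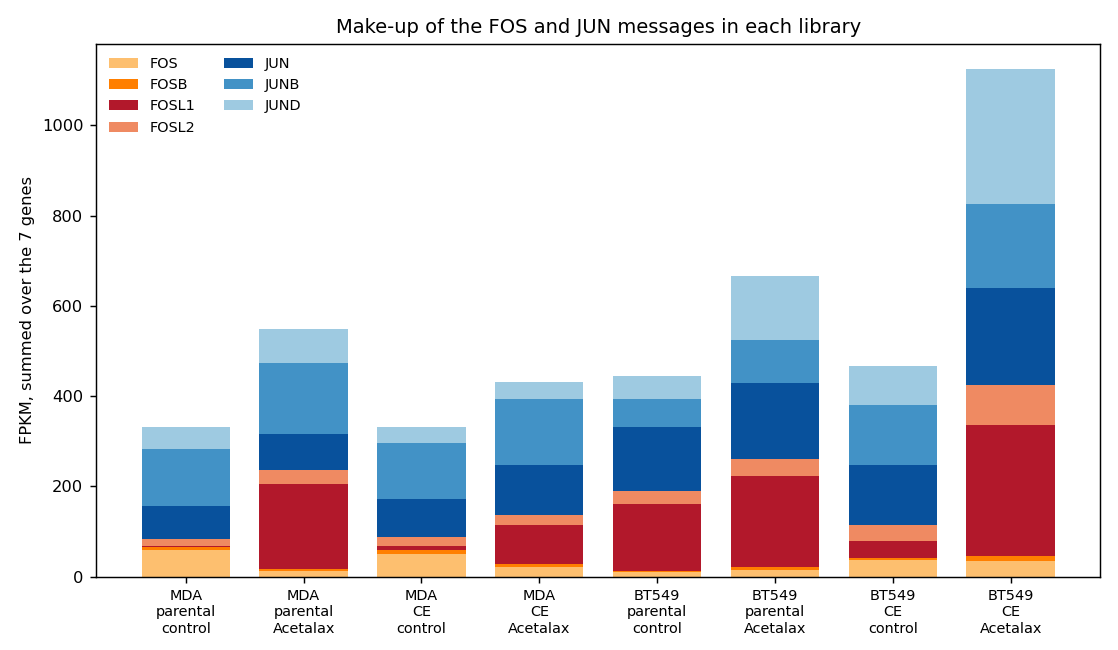
FPKM of the 7 FOS and JUN genes stacked in each library (FOS family in orange and red, JUN family in blue; MDA stands for MDAMB468). The FOSL1 band is 0.987% of the stack in MDAMB468 parental control cells and 34.2% after Acetalax, and the tallest stack, BT549 CE with Acetalax, reaches 1124 FPKM.

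The order of the levels per length showed the same. FOSL1 had rank 8 of the 9 genes in MDAMB468 parental control cells, at 3.28 FPKM, and rank 1 after Acetalax, at 187.4 FPKM. FOS had rank 3 in MDAMB468 parental control cells, at 59.8 FPKM, and rank 6 after Acetalax, at 12.3 FPKM. JUNB led in 3 of the 4 MDAMB468 libraries, at 126.0, 125.6 and 145.6 FPKM in parental control, CE control and CE Acetalax cells. BATF3 was last in all 8 libraries, at 0.298 to 1.21 FPKM. Of 64 pairs of neighbours in these orders, 3 had overlapping counting intervals: JUN and JUNB, at 133.2 and 132.7 FPKM, and FOS and FOSL1, at 37.9 and 37.7 FPKM, in BT549 CE control cells, and FOSL2 and FOS, at 22.1 and 21.4 FPKM, in MDAMB468 CE Acetalax cells.

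CE and parental cells without the drug differed in the opposite direction for FOSL1 in the 2 lines. In MDAMB468 the log2 ratio of CE over parental control cells was 1.48 (1.29 to 1.67) for FOSL1, from 6.18 to 17.2 CPM, and -0.26 (-0.30 to -0.22) for FOS. In BT549 it was -1.98 (-2.04 to -1.93, 3.96-fold lower) for FOSL1 and 1.93 (1.85 to 2.02, 3.82-fold higher) for FOS. BT549 CE control cells thus held a FOS and FOSL1 balance between those of the parental lines. JUNB was higher in BT549 CE control cells by 1.10 (1.05 to 1.14) and JUND by 0.72 (0.67 to 0.77), whereas in MDAMB468 JUNB was at -0.01 (-0.04 to 0.03) and JUND at -0.49 (-0.56 to -0.43). FOSB was higher in CE cells of both lines without the drug, by 0.47 (0.38 to 0.56) and 0.87 (0.72 to 1.02), and with it, by 0.66 (0.56 to 0.77) and 0.93 (0.84 to 1.02).

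In MDAMB468 control cells 1 member (FOSL1) had a CE over parental log2 ratio of at least 1 and 0 had one of at most -1, beside 2.82% and 3.11% of genes. In BT549 control cells 2 (FOS and JUNB) were at or above 1 and 1 (FOSL1) at or below -1, beside 9.7% and 6.31% of genes. With Acetalax, 0 and 1 (FOSL1, -1.12) were so in MDAMB468, beside 3.54% and 3.87% of genes, and 3 (FOS, FOSL2 and JUND) and 0 in BT549, beside 9.69% and 7.09% of genes. This count of 3 became 1 with library totals and 0 on the log2(FPKM + 1) scale. The medians of the members were 0.17, 0.27, -0.20 and 0.93 in these 4 pairs, in the same order. JUND with Acetalax was at -0.99 (-1.05 to -0.93) in MDAMB468 and 1.07 (1.04 to 1.10) in BT549. The pairs with and without Acetalax use separate libraries, but the CE and the Acetalax ratios of a line share them.

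**Figure D4:**
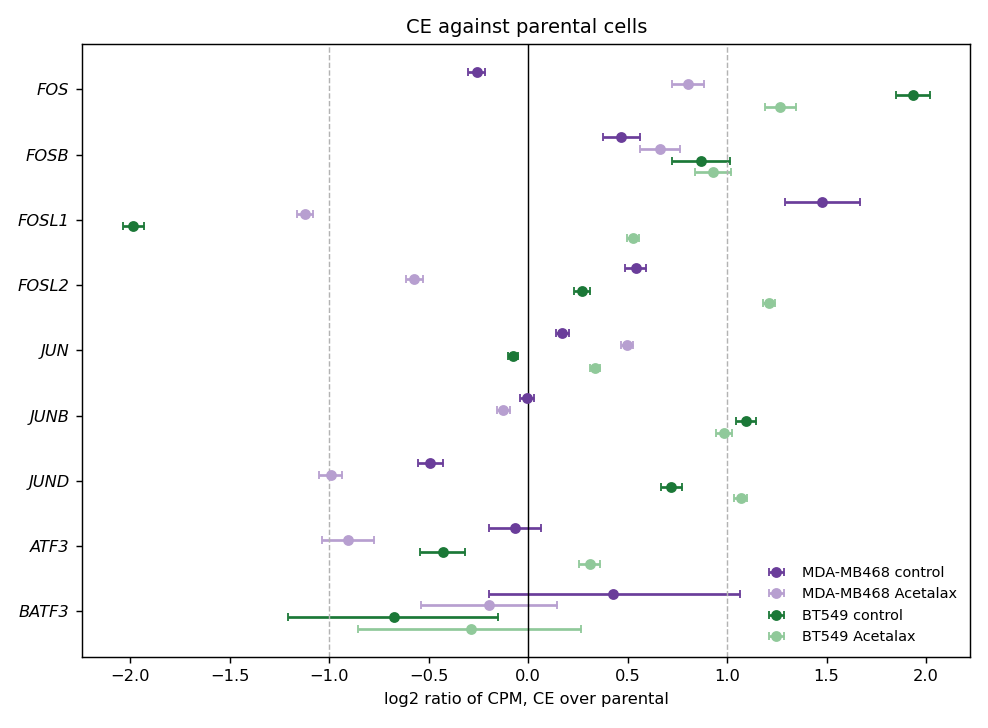
Log2 ratio of CPM, CE over parental cells, for each AP-1 gene in each line without and with Acetalax (points; bars, exact 95% counting intervals; dashed lines at -1 and 1). FOSL1 lies at 1.48 in MDAMB468 and -1.98 in BT549 control cells, FOSB is above 0 in all 4 pairs, and JUND is below 0 in MDAMB468 and above 0 in BT549.

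Between the lines, 5 members (JUN, FOSL2, ATF3, FOSL1 and JUND) were at a higher CPM in BT549 than in MDAMB468 in 4 of 4 conditions, and the other 4 in 2 of 4. Differences between the lines were common among all genes. An edgeR fit over the 4 conditions called 28.0% of 17924 genes higher and 28.7% lower in BT549 (adjusted p under 0.05). The share of all genes that were higher in 4 of 4 conditions was not counted. In parental control cells the counting intervals of JUND overlapped, at 99.96 CPM in BT549 and 94.6 CPM in MDAMB468. With library totals these JUND levels were 99.5 and 101.6 CPM, in the opposite direction. The log2 fold change of BT549 over MDAMB468, fitted over the 4 conditions, was 0.92 for JUN, 0.99 for FOSL2, 1.67 for ATF3, 2.18 for FOSL1 and 1.31 for JUND. It was -0.47 for FOS, -0.26 for FOSB, -0.33 for JUNB and -0.28 for BATF3. The 4 conditions are not replicates of a line, so these fold changes carry no measure of spread. FOS and FOSB were lower in BT549 in both control conditions and higher in both Acetalax conditions. BATF3 went the other way round, though within counting error in CE control cells. With TMM scaling JUNB was lower in BT549 in parental cells and higher in CE cells. With library totals JUNB was at 234.0 CPM in BT549 and 257.8 CPM in MDAMB468 CE control cells, in the opposite direction. In CE Acetalax cells these totals gave 283.5 and 280.2 CPM. The levels of these genes entered their selection and the 4 libraries of a line share 1 cell line, so no p or SE is given for them.

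Some members followed each other and others did not. With log2 CPM centred within each line over the 8 libraries, Pearson's r between 2 members ran from -0.88 (FOS and BATF3) to 0.92 (FOSL1 and BATF3). It was 0.86 between JUND and ATF3, 0.82 between FOSL2 and JUND, 0.79 between JUNB and JUND, and -0.77 between FOS and FOSL1. FOS had -0.03 with JUN and 0.14 with JUND. These are descriptions over 8 libraries that share lines and drug. The genes most like FOSL1 among the 11101 genes averaging 5 CPM or more were SBF1 (r = 0.99), C11orf68 (0.98) and NT5DC3 (0.98). Those most like FOS were YEATS4 (0.99), UBXN4 (0.97) and RRNAD1 (0.965). For JUN they were CPSF3L (0.98), DUS1L (0.97) and FAM96B (0.97), and for ATF3 TBC1D22B (0.99), RBM33 (0.99) and FNIP1 (0.99). The ratios of the genes most like FOS and FOSL1 were mostly small beside the member's own: SBF1 had log2 ratios of 0.47, 0.31, 0.08 and 0.32 in MDAMB468 parental, MDAMB468 CE, BT549 parental and BT549 CE cells, where FOSL1 had 5.84, 3.24, 0.44 and 2.95. Others were nearer in size. In the same order TBC1D22B had 0.52, 0.02, 1.4 and 2.28, where ATF3 had 0.51, -0.33, 1.99 and 2.73. FAM96B had 0.17, 0.31, 0.2 and 0.52, where JUN had 0.09, 0.42, 0.27 and 0.68.

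Genes around the family were followed in lists that were also chosen with earlier results of these data known, so their calls are no independent check. The lists were tested for Acetalax over the 4 backgrounds with edgeR, where 5.07% of 17924 genes were called, 2.66% as higher and 2.41% as lower. Of 33 tested AP-1 target genes, known from other systems to be driven by AP-1, 10 rose and 0 fell. IL8, the neutrophil chemokine, rose by a log2 fold change of 4.25 (SE 0.70, adjusted p = 0.0371), with ratios of 5.20, 3.41, 2.14 and 6.34 in MDAMB468 parental, MDAMB468 CE, BT549 parental and BT549 CE cells. The cytokine IL6 rose by 2.81 (SE 0.45, adjusted p = 0.0361), the IL6 relative LIF by 2.81 (SE 0.51, adjusted p = 0.0407) and F3, tissue factor, by 2.53 (SE 0.57, adjusted p = 0.0489). LIF was at 34.5 and 440.3 CPM in MDAMB468 parental cells without and with Acetalax and at 46.5 and 749.7 CPM in BT549 CE cells, while F3 was below 1 CPM in every BT549 library. The target list went both ways between BT549 CE and parental control cells: of the 31 targets averaging 1 CPM or more, 5 had a log2 ratio of at least 1 and 8 of at most -1, beside 9.7% and 6.31% of all genes, with a median of -0.69. IL8 was at -3.25 and LIF at -2.28, whereas TIMP1, a protease inhibitor, was at 1.76 and LOX, which crosslinks collagen, at 1.42. TIMP1 and LOX were named with their values known. MMP9 at 5.11 and IVL at 2.01 had larger ratios, at 4.5 and 0.038 CPM in BT549 CE control cells.

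Of 33 tested other immediate early genes, 14 rose and 0 fell. MAFF, a small bZIP protein, rose by 2.49 (SE 0.42, adjusted p = 0.0387), ARC by 2.11 (SE 0.37, adjusted p = 0.0389), PTGS2, the inducible cyclooxygenase, by 1.95 (SE 0.38, adjusted p = 0.049) and GADD45A, a growth arrest gene, by 1.85 (SE 0.26, adjusted p = 0.0319). PTGS2 was at 0 in all 4 MDAMB468 libraries and ARC at 0.21 to 2.69 CPM, so these calls rest on few counts. EGR1, the immediate early zinc finger gene, was at 0.57 (SE 0.18, adjusted p = 0.0945), with 207.3 and 198.9 CPM in MDAMB468 parental cells without and with Acetalax. Without the MDAMB468 parental, MDAMB468 CE or BT549 CE pair no gene of these lists, nor any other, was called (0 by edgeR), with 3223 to 4671 genes at an unadjusted p under 0.05. Without the BT549 parental pair 11 of 32 tested AP-1 targets and 8 of 32 tested immediate early genes rose and 0 fell. In that fit 225 of all 17529 genes were called higher and 98 lower. With DESeq2, 19 and 21 rose and 0 fell, where 1312 of all 17924 genes were called higher, and with library totals 6 and 10 rose and 0 fell, where 280 of 17811 were.

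**Figure D5:**
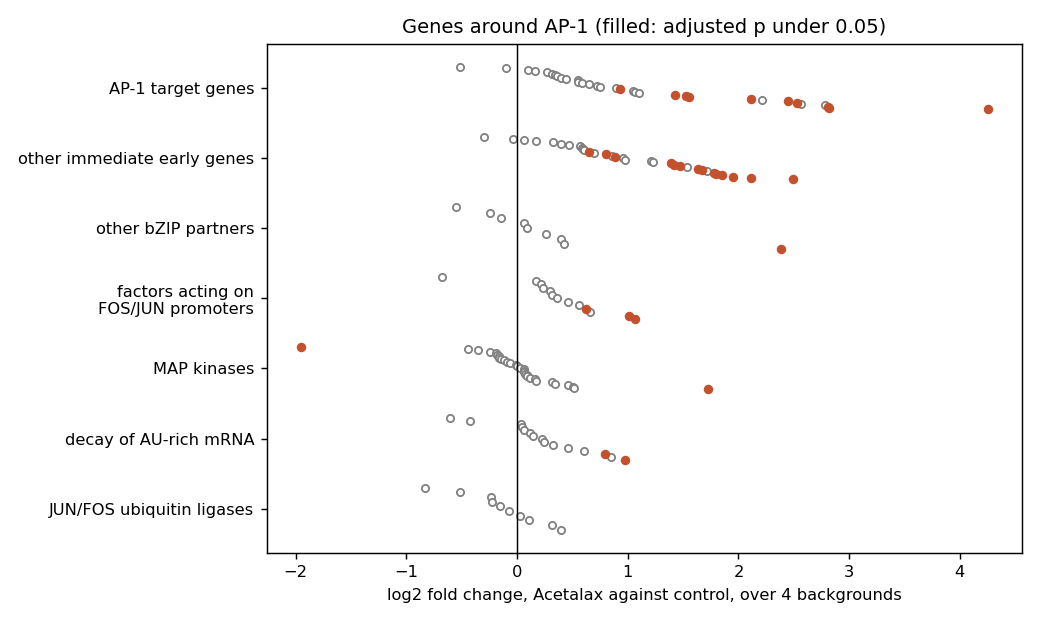
Log2 fold change for Acetalax against control over the 4 backgrounds, 1 point for each tested gene in 7 lists around AP-1 (filled, adjusted p under 0.05 by edgeR; open, not passed; vertical spread for display only). Filled points number 10 of 33 AP-1 target genes, 14 of 33 immediate early genes and 0 of 10 ubiquitin ligase genes, and the only one left of 0 is MAP2K6, among the MAP kinases.

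Among the factors that act on FOS and JUN promoters, 3 of 13 rose and 0 fell: SRF, the serum response factor, by 1.07 (SE 0.18, adjusted p = 0.0389), and its ETS partners ELK3 by 1.01 (SE 0.22, adjusted p = 0.0477) and ELK1 by 0.62 (SE 0.12, adjusted p = 0.0414). Of 9 other bZIP partners 1 rose, CREB5, by 2.38 (SE 0.33, adjusted p = 0.0313), and it was at 0.162 to 2.95 CPM in MDAMB468 against 14.9 to 144.3 CPM in BT549. Of 30 MAP kinases and their kinases 1 rose, MAP2K3, which activates p38, by 1.73 (SE 0.28, adjusted p = 0.0358), and 1 fell, MAP2K6, by 1.95 (SE 0.31, adjusted p = 0.0358), at a mean of 1.48 CPM. Of 15 genes for the decay of AU-rich mRNA, the route by which FOS messages are cleared, 2 rose, ZFP36 by 0.98 (SE 0.14, adjusted p = 0.0319) and ZFP36L2 by 0.80 (SE 0.18, adjusted p = 0.0472). Of 10 ubiquitin ligases and partners acting on JUN and FOS 0 were called by edgeR, with 3 at an unadjusted p under 0.05, as were 5098 of all 17924 genes. DESeq2 and edgeR without a filter each called 1 lower. Those with the largest median ratios were DET1, USP28 and ITCH. Their log2 fold changes fitted by edgeR were -0.83 (SE 0.35, adjusted p = 0.169), -0.51 (SE 0.13, adjusted p = 0.0613) and 0.40 (SE 0.14, adjusted p = 0.126). For CE against parental cells over 4 pairs, 11 of 17924 genes (0.0614%) were called and 0 of any list, with 10 of the 33 AP-1 targets and 6 of the 33 immediate early genes at an unadjusted p under 0.05, as were 2504 of all 17924 genes. DESeq2 called 4 AP-1 targets higher and 2 lower in CE cells, and 592 and 415 of all genes. Without a filter edgeR called 3 of 42 AP-1 targets higher and 1 lower, and 250 and 196 of all 37154 genes.

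Sums of cell type markers differed between CE and parental cells, as did the CE ratios above, and their part in those ratios was not tested. Over the 4 conditions edgeR called 56.7% of the 17924 genes between the lines, 28.0% higher in BT549 and 28.7% higher in MDAMB468. The 11 mesenchymal markers, of which 11 were called higher in BT549, summed to 5944 CPM in BT549 parental and 12930 CPM in BT549 CE control cells, and to 53.9 and 25.1 CPM in the corresponding MDAMB468 cells. The higher sum in BT549 CE cells came largely from COL1A2 at 1050 and 4673 CPM, SPARC at 440.6 and 3576 CPM and COL3A1 at 126.7 and 1440 CPM. These are matrix genes, but FN1, also a matrix gene, was at 1636 and 614.7 CPM. VIM was at 1333 and 896.2 CPM and CDH2 at 223.8 and 113.6 CPM. Of the 11, 4 had a CE log2 ratio of at least 1 in BT549 control cells and 1 of at most -1, with a median of 0.68. Of all genes averaging 1 CPM or more, 9.7% and 6.31% had such ratios in this pair. The 11 epithelial markers, of which 11 were called higher in MDAMB468, summed to 7094 and 8342 CPM in MDAMB468 and to 273.5 and 189.5 CPM in BT549 parental and CE control cells. That BT549 sum followed KRT7, at 261.1 and 92.2 CPM, whereas KRT8 was at 1.26 and 35.7 CPM and KRT18 at 6.70 and 49.7 CPM. Of the 11, 6 had a CE log2 ratio of at least 1 in BT549 control cells and 4 of at most -1, beside the same 9.7% and 6.31% of all genes. Their median was 1.60, with most of them at under 5 CPM. For Acetalax, 1 epithelial marker fell by edgeR, KRT19, by 0.72 (SE 0.15, adjusted p = 0.0454). Of the mesenchymal markers 0 were called by edgeR with the filter or by DESeq2, with 3 at an unadjusted p under 0.05 by edgeR, as were 5098 of all 17924 genes. Without a filter edgeR called 3 of the 11 higher and 0 lower, and 1829 and 1756 of all 37154 genes. The mesenchymal markers with the largest median ratios were VIM, FN1 and COL1A1. Their fitted log2 fold changes were 0.49 (SE 0.15), 0.33 (SE 0.11) and 0.32 (SE 0.13). The blood and endothelial markers summed to 1.497 to 3.046 CPM in BT549 and 13.9 to 44.9 CPM in MDAMB468. For Acetalax 0 of 3 tested were called by edgeR, with 1 at an unadjusted p under 0.05 and 1 higher by DESeq2. Without a filter edgeR called 1 of 6 higher. CDH5 was at 1.60 (SE 0.37, adjusted p = 0.0631), CD14 at -0.15 (SE 0.46) and PTPRC at -0.44 (SE 0.38). Of 8 mitochondrial messages 1 rose, MT-ND2, by 0.42 (SE 0.09, adjusted p = 0.0454), and mitochondrial genes took 4.0% to 10.0% of the counts, with 4.0% in the BT549 CE Acetalax library.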

How the data were processed

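Per the labels and the study's methods, the authors aligned paired reads of 8 poly(A) libraries, made with a strand-specific kit, to hg19 with STAR. They counted reads per gene with its GeneCounts option. The submitters' processing notes give STAR 2.7.11b, and the study's methods name another version. The deposited values are raw counts of reads, unscaled whole numbers for every gene in every library. The annotation and the strand column are not given in the sources used here, so genes overlapping on opposite strands are uncertain. The deposited table has 58154 entries for 55679 gene identifiers; repeats (1392 identifiers) were used 1 time, 3 of them with unlike counts, and 28 symbols turned into dates were restored by identifier. A further deposited column, of another kind, holds the genomic span of each gene and served only as an alternative length.

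Groups came from the labels. Totals were 42261122 to 54241728 counts, at which 1 CPM is at least 42 counts, and any 2 libraries differed with a chi-square per degree of freedom of 39.5 or more, so none was a copy. CPM used TMM scaling (edgeR 4.0.16, R 4.3.3), and FPKM divided it by merged exon lengths of GENCODE v44 lifted to GRCh37. Log2 ratios had 0.5 counts added, with exact 95% intervals for the ratio of 2 counts. The 17924 genes passing filterByExpr entered edgeR's quasi-likelihood fit of all 8 libraries, with 3 residual degrees of freedom, Benjamini-Hochberg adjusted at 0.05. The terms were Acetalax (blocked on background), CE (on line and treatment) and line (on condition). Calls of the line fit were used for the marker lists and the shares of all genes, and members have its fold changes only. The SE of a fitted fold change is its size divided by the square root of the test's F. The script was tested on simulated data. Named by rule are the 9 members, for each of 11 lists up to 4 called genes with the largest fold change or else the 3 with the largest median ratio, the 3 genes most like FOS, FOSL1, JUN and ATF3, and EGR1. Further list genes, among them TIMP1, LOX, COL1A2, SPARC, COL3A1, CDH2, KRT7, KRT8 and KRT18, were named outside this rule with their values known. The members and lists were chosen with earlier results of these data known. Alternatives were library totals, DESeq2 size factors, DESeq2 1.42.0, no filter, 5 counts added, log2(FPKM + 1), other lengths and leaving out each pair.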

Additional observations from a re-analysis of the deposited data

Results flagged for a closer look

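FOSB went in opposite directions with Acetalax in the 2 lines: both BT549 backgrounds were higher and both MDAMB468 backgrounds lower than their controls, each beyond its counting interval, with a mean log2 ratio 1.71 higher in BT549. JUND differed in opposite directions between CE and parental cells: it was higher in CE cells of BT549 and lower in CE cells of MDAMB468, without and with the drug, and the means of the 2 log2 ratios lay 1.64 apart, higher in BT549. Neither difference between lines was tested, since the members were chosen on these ratios and each rests on single libraries.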

How the results depend on the processing

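For Acetalax over 4 backgrounds 909 genes were called (477 higher, 432 lower). The split was 280 higher and 523 lower with library totals, DESeq2 called 2941 genes and the fit without a filter 3585, and leaving out a pair gave 0 to 323 (323 without BT549 parental, 0 without each other pair). For CE 11 genes were called, 1007 with DESeq2, 446 without a filter, and 0 to 2 without a pair (2 without the MDAMB468 control pair). For line 10168 genes were called (5023 higher and 5145 lower in BT549, 4079 and 5926 with library totals). The cause of these moves was not tested. Between lines, leaving out a pair moved FOS from -0.891 to 0.153 and FOSB from -0.598 to 0.098 (positive without parental control), and BATF3 from -0.737 to 0.032 (0.006 without parental Acetalax, 0.032 without CE Acetalax).

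The member median after Acetalax in MDAMB468 CE cells was -0.007 with library totals and with log2(FPKM + 1); JUND was -0.007 with both, and FOSL2 -0.01 and -0.009. With library totals the medians were 1.11 in BT549 CE, 0.23 for CE in MDAMB468 and 0.22 for CE in BT549 control cells; on the log2(FPKM + 1) scale they were 1.08, 0.14 and 0.22, and 0.37 in MDAMB468 parental cells. Besides these 4 values, 201 alternative log2 ratios of single members stayed within their counting intervals and 83 moved outside them.

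With the longest transcript, the FOS family share, control then Acetalax, was 31.5% and 45.7% in MDAMB468 parental, 32.2% and 34.7% in MDAMB468 CE, 44.3% and 41.0% in BT549 parental and 28.1% and 40.2% in BT549 CE cells. With genomic spans, which count introns, it was 19.99% and 17.01%, 19.3% and 14.3%, 16.3% and 14.7%, and 13.4% and 15.2%. The labels carry no replicate numbers, and each test compared pairs of libraries within a background, line and treatment, or condition. With 1 library per condition depth is not the limit for members other than BATF3.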

Other observations

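The genes next to FOSL1 on chromosome 11 (hg19) were looked up after their values were seen, because C11orf68 was among the genes most like it. Within 50 kb of FOSL1, 9 genes including FOSL1 had a mean of at least 1 CPM. C11orf68 (65684279-65686588) had log2 ratios of Acetalax over control of 1.10, 0.58, 0.02 and 0.72 in MDAMB468 parental, MDAMB468 CE, BT549 parental and BT549 CE cells, and DRAP1 (65686728-65689032), a transcriptional repressor subunit, had 0.86, 0.65, 0.17 and 0.76. CCDC85B, on the other side of FOSL1, had 0.96, 0.69, -0.02 and 0.29. FIBP, the next gene, had -0.22, -0.02, -0.06 and 0.06, and the actin regulator CFL1 had 0.13, 0.24, 0.17 and 0.34. EFEMP2, a matrix protein gene, was at 2.18 and 2.06 in BT549 and at 1.305 and 0.086 in MDAMB468 for CE over parental cells, without and with the drug. These values are single-library ratios and were not tested.

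Other AP-1 targets that rose, named here after their values were seen, were EDN1, the vasoconstrictor endothelin, at a log2 fold change of 1.43 (SE 0.17, adjusted p = 0.027), KRT6A, a wound keratin, at 2.45 (SE 0.22, adjusted p = 0.0265), and CDKN1A, the p21 cell cycle inhibitor, at 1.55 (SE 0.31, adjusted p = 0.0429), all by edgeR's quasi-likelihood test over 4 backgrounds. KRT6A was at 0 in 3 BT549 libraries and at 0.0238 CPM in the fourth, so its call rests on MDAMB468, with ratios of 2.49 in parental and 2.41 in CE cells. Among the immediate early genes CYR61 rose by 1.79 (SE 0.17, adjusted p = 0.0265), with ratios of 1.36 to 2.34 in the 4 backgrounds, and SGK1, a kinase induced by cell volume change and hormones, by 1.78 (SE 0.23, adjusted p = 0.0311), with ratios of 1.22 to 2.71. These calls are lost, like all others, without any 1 of 3 of the pairs.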
